A study of Mus musculus with 4 samples.

Results

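The regions described here are TCF1 peaks that were called in Sox13hi γδ thymocytes and in neither of the other populations of the study. They were selected on the peak calls and scores themselves: a peak of the Sox13hi list on chromosomes 1 to 19 was kept if it shared no base with any Sox13lo or DP peak, had a score of at least 11.8, which marks the upper 25 % of the list, and was at least 150 bp wide. This left 4402 peaks, called the selected peaks below, out of 31769 autosomal peaks of the Sox13hi list alone and 41720 Sox13hi peaks in all. The score is the authors' own value for a peak, and it is used only to rank and filter peaks within the Sox13hi list.

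TCF1, the product of Tcf7, is a DNA-binding protein with a high mobility group box that can act with β-catenin as an activator and with Groucho-type corepressors as a repressor. It is needed from early stages of T cell development onward. SOX13 carries a box of the same family and is known from mouse γδ thymocytes, where Sox13 marks and is required for a subset of cells that make IL-17. The comparison asked how many TCF1 peaks were called in the Sox13hi cells alone and where they lay.

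The γδ cells were thymocytes that carried CD24, an antigen of immature thymocytes, sorted from C57BL/6 mice with the genotype TCRbeta KO.Sox13 ECFP KI/+, in which loss of TCRβ prevents the αβ lineage and a fluorescent protein inserted into 1 Sox13 allele reports Sox13. Cells with high reporter signal are the Sox13hi population and those with low or absent signal the Sox13lo population. DP thymocytes, the αβ precursors with both CD4 and CD8, were sorted from wild type C57BL/6 mice. Genotype and cell type cannot be told apart between the γδ and the DP cells. One antibody to TCF1 was used for all 3 immunoprecipitations, and an input sample of γδ thymocytes was not analysed here.

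With 1 library for each population there are no replicates, and nothing below is a test between populations. The lists held 41720 Sox13hi, 10871 Sox13lo and 90956 DP peaks, and their read depth is unknown. A selected peak is a call absent from the other lists, and weaker enrichment at the same place in Sox13lo or DP cells would not be seen. All positions are on mm9, counted from 1, and intervals in brackets are 95 % Wilson intervals of shares or exact Poisson intervals of counts that cover counting error only. Neighbouring peaks are not independent. Genes near the peaks, promoters, sequences and TCF/LEF motifs were not analysed here, because no gene positions or sequence on mm9 were used.

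Most of the selected peaks were modest calls close to the minimum score. Their median score was 14.4, with the middle 50 % between 12.9 and 16.8, and 424 of them (9.63 %) scored 20 or more. Only 39 scored 30 or more. They were also narrow: 1677 (38.1 %) were 150 bp wide, 2050 (46.6 %) were 200 bp and 529 (12 %) were 250 bp, while 11 reached 400 bp or more. Wider peaks had higher scores, from a median of 13.3 at 150 bp and 14.6 at 200 bp to 17.4 at 250 bp and 23.0 at 350 bp. In all, the selected peaks covered 840.5 kb and stood at ranks 282 to 10380 of the Sox13hi list.

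Scores ran on without a break across the minimum. At the lowest score kept, 11.8, there were 48 selected peaks, among them one on chromosome 1 at 37094101 to 37094250. Just below it, at 11.76, there were 44 peaks of the Sox13hi list alone and of sufficient width, among them one on chromosome 1 at 75327451 to 75327650. The width minimum removed only 113 peaks that had passed the score.

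Absence from both other lists was the rule among weak Sox13hi calls and rare among strong ones. Of all 40156 autosomal Sox13hi peaks, 79.1 % were in neither other list. Of the 9876 peaks that passed both minima, 4402 were, or 44.6 % (43.6 to 45.6), against 90.4 % (90.04 to 90.71) of those below either minimum. Within the 9876, the share fell from 80.5 % of peaks scored below 13 to 57.6 % of those scored 15 to 20, 19.6 % of those scored 20 to 30 and 2.60 % of those scored 30 to 50. A single peak of 614 scored 50 or more was found in the Sox13hi list alone. Width gave the same order, from 74.6 % at 150 bp through 30.5 % at 250 bp to 1.07 % at 400 bp or more. These values describe the choice of the peaks and carry no test, and wide peaks overlap other peaks more easily.

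**Figure D1:**
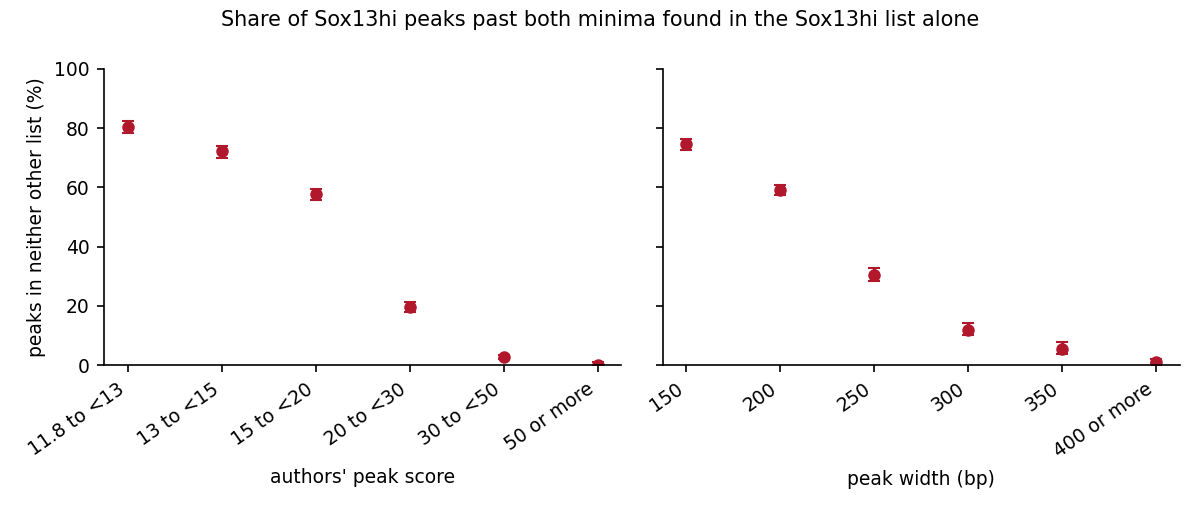
Share of the 9876 autosomal Sox13hi peaks past both minima that overlapped no Sox13lo or DP peak, by the authors' score (left) and by width in bp (right); points are shares and bars 95 % Wilson intervals. The share falls from 80.5 % in the lowest score class to 0.163 % in the highest, and from 74.6 % at 150 bp to 1.07 % at 400 bp or more.

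The peaks that passed both minima and were shared had mostly partners in the Sox13lo list. Of these 5474 peaks, 3372 were in all 3 lists, with a median score of 28.3, and 1796 were in the Sox13lo but not the DP list, with a median of 22.0. The 306 peaks shared with DP alone had a median score of 14.7 and a median width of 200 bp, close to the 14.4 and 200 bp of the selected peaks. On the sex chromosomes, which the choice left out, 130 peaks on X and 19 on Y met the same criteria.

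The strongest selected peak stood far above the others. It lay on chromosome 8 at 67792901 to 67793100 (score 66.5), where the nearest DP peak was 2500 bp away while the nearest Sox13lo peak was 160700 bp away. The second, on chromosome 11 at 109428901 to 109429150, scored 39.8 and lay 43350 bp from a Sox13lo peak that belonged to a region of all 3 lists. The third, on chromosome 2 at 111395651 to 111395950, scored 39.0 and lay 683750 bp from the nearest Sox13lo peak.

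From the second peak on, scores declined in small steps, down to 32.5 at the peak ranked 20 of the selected set. The peak on chromosome 15 at 22920101 to 22920350 (score 38.3) was 2373650 bp from any Sox13lo peak, and that on chromosome 4 at 68758651 to 68758900 (score 36.4) was 1020100 bp away. Their nearest DP peaks were 11250 and 3650 bp away. The peak on chromosome 10 at 80499851 to 80500050 (score 37.9) lay 5500 bp from a Sox13lo peak. Among the 20 were also the widest of the whole selected set, 550 bp on chromosome 1 at 47401901 to 47402450 (score 35.6) and 500 bp on chromosome 11 at 5519601 to 5520100 (score 36.1).

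One of the strongest calls was a near miss of a shared site. The peak on chromosome 10 at 90633551 to 90633900 (score 38.2, 350 bp wide) lay 150 bp from a Sox13lo peak and 350 bp from a DP peak, beside a region of all 3 lists. The peak on chromosome 15 at 35093851 to 35094150 (score 34.8) lay 8450 bp from such a region. Of the 20 best-scored selected peaks, 1 was within 1 kb of a Sox13lo peak and 5 within 10 kb, and 9 were within 10 kb of a DP peak. The remaining 11 had no DP peak within 10 kb. Within 10 kb of a common region lay 2 of the 20. Of all selected peaks, 5.43 % lay within 10 kb of a Sox13lo peak, 51.5 % of a DP peak and 2.34 % of a common region. Uniform placement, explained below, gives 7.11 %, 50.7 % and 3.03 %. The share of the 20 near Sox13lo peaks was thus higher than that of the whole set, though 20 peaks are few. Among the 1101 best-scored selected peaks it was 5.72 % (4.50 to 7.25), an interval that includes the value of the whole set.

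Near misses made up a small part of the selected peaks as a whole. Of the 4402, 85 lay within 200 bp of a Sox13lo or DP peak and 334 (7.59 %, 6.84 to 8.41) within 1 kb. Within 1 kb of a DP peak lay 315 and within 1 kb of a Sox13lo peak 34, where uniform placement, over each chromosome, gives 316.8 and 35.2 for these lists of unequal length. There were 20 selected peaks that directly adjoined a DP peak without sharing a base, the best-scored on chromosome 10 at 99395501 to 99395750 (score 27.0). One adjoined a Sox13lo peak, on chromosome 4 at 149655651 to 149655900 (score 15.3).

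Nearness was set beside what uniform placement would give. For each selected peak, the expected share was the part of all positions on its own chromosome, for a peak of its width that overlaps no Sox13lo or DP peak, that lay within the given distance. Positions ran from the first to the last peak of the chromosome, and sequence to which reads cannot be assigned was not taken out. The expected share within 1 kb of a Sox13lo or DP peak was 7.59 %, the same as observed. Lower-scored or narrower peaks of the Sox13hi list alone were within 1 kb of such a peak in 8.44 % (8.12 to 8.78) of cases, against 7.60 % expected.

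Relative to DP peaks, the selected peaks lay where uniform placement would put them. Within 1 kb of a DP peak the observed share was 7.16 % (6.43 to 7.96) and the expected share 7.20 %. Within 5 kb they were 30.7 % (29.4 to 32.1) and 30.1 %, and within 10 kb 51.5 % (50.1 to 53.0) and 50.7 %. The intervals include the expected value at each of these distances. Within 50 kb the observed share was 97.0 % (96.4 to 97.4), slightly above the 95.9 % expected. Within 5 kb, 6 of the 19 autosomes were below the expected share, with ratios of observed to expected from 0.777 to 1.25.

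Relative to Sox13lo peaks and to the sites common to all populations, the selected peaks were farther away than uniform placement would put them. The common sites are 3956 autosomal regions, made by merging overlapping peaks, that hold peaks of all 3 lists. Within 50 kb of a common region there were 423 selected peaks, or 9.61 % (8.77 to 10.5), against 13.5 % expected, a ratio of 0.713 (0.651 to 0.780). Within 100 kb there were 17.6 % (16.5 to 18.8) against 23.6 %. At shorter distances no shortfall was detectable, with 12 peaks against 14.1 expected within 1 kb and 52 against 67.8 within 5 kb. The interval at 5 kb, 0.902 to 1.546 %, just includes the expected 1.541 %. The choice of the peaks fixes that they overlap no common region. It also removed Sox13hi peaks with a Sox13lo partner, which lay near common regions more often than uniform placement gives. Of those past both minima, in no DP peak and outside the common regions, 31.8 % were within 50 kb of one, against 14.3 % expected. Uniform placement does not model this removal, and its part in the distances was not tested.

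The shortfall was also present for Sox13lo peaks over the same range. It is not a separate result, because every common region holds a Sox13lo peak. The choice also removed every Sox13hi peak that overlapped a Sox13lo peak, and its part in these values was not tested. Within 10 kb of a Sox13lo peak lay 5.43 % (4.80 to 6.14) of the selected peaks against 7.11 % expected, and within 50 kb 21.1 % (19.9 to 22.3) against 27.4 %. Within 1 kb the shares were 0.772 % (0.553 to 1.08) and 0.80 %, so no shortfall was detectable at that distance with 34 peaks. On every one of the 19 autosomes the share within 50 kb was below the expected one. Ratios ran from 0.456 to 0.95 for Sox13lo peaks and from 0.317 to 0.926 for common regions. On most autosomes, however, the interval for common regions included the expected share, such as 9.64 to 19.3 % against 14.9 % on chromosome 15. For Sox13lo peaks the interval included it on some. Chromosome 16 had the lowest ratio for common regions, with 7 of 216 selected peaks within 50 kb.

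**Figure D2:**
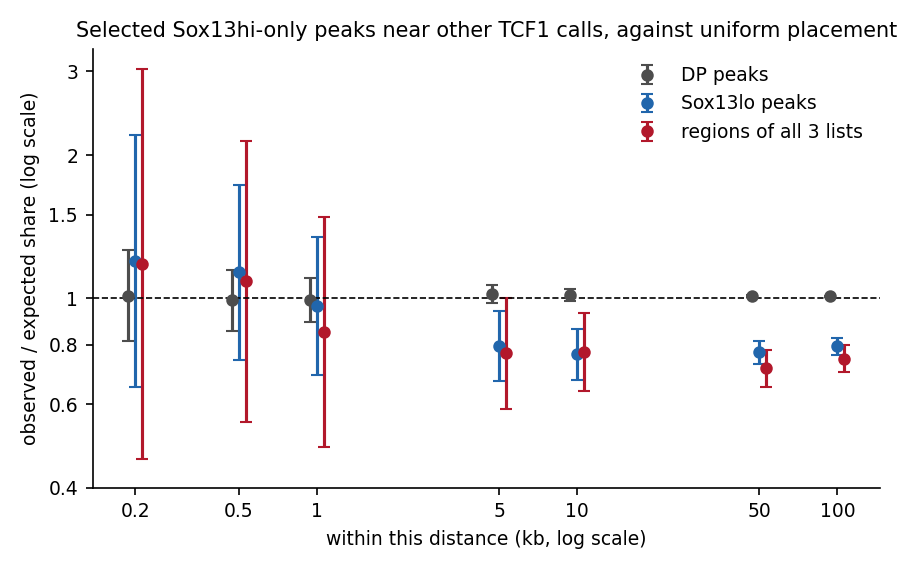
Ratio of the observed share of selected peaks within a given distance of a DP peak, a Sox13lo peak or a region of all 3 lists to the share expected from uniform placement (both axes logarithmic); bars are 95 % Wilson intervals of the observed share divided by the expected share. DP points stay near 1 at all distances, while Sox13lo and common-region points lie between 0.713 and 0.794 from 5 to 50 kb. From 0.2 to 1 kb the intervals of both include 1, as does the common-region interval at 5 kb (0.585 to 1.003).

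The better-scored selected peaks were not more often within 50 kb of a common region. Within 50 kb of one lay 8.99 % (7.44 to 10.8) of the 1101 best-scored and 10.6 % (8.94 to 12.6) of the 1101 lowest-scored, against 13.4 % expected for both. Within 10 kb the order was the other way, with 2.54 % (1.765 to 3.65) of the best-scored and 2.27 % (1.54 to 3.33) of the lowest-scored. The intervals of these groups overlap at both distances. Peaks of the Sox13hi list alone that missed a minimum had 11.2 % (10.8 to 11.5) within 50 kb, against 13.6 % expected, so distance from common regions was also present among weaker calls of the same list.

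Values for Sox13hi peaks that did have a Sox13lo partner are given as a description, since both the split and the common regions rest on Sox13lo peaks, which lay in clusters. Past the same minima, and outside the common regions themselves, 1592 peaks were in the Sox13lo but not the DP list, and 31.8 % (29.5 to 34.1) of these lay within 50 kb of a common region, against 14.3 % expected. Among those scored below 20 and at most 250 bp wide, which are closer in strength to the selected peaks, the share was 32.8 % (29.2 to 36.6) of 616, against 9.61 % (8.72 to 10.6) of the 3914 selected peaks in the same bounds. The 304 peaks shared with DP alone had 12.8 % (9.53 to 17.1), an interval that includes the 13.5 % expected.

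Density was also counted over larger distances. The autosomes were divided into windows of 1 Mb, of which 2386 lay fully between the first and last peak of a chromosome. In the 901 windows without a common region the selected peaks had a density of 2.37 per Mb (2.27 to 2.47). This fell to 1.76 (1.65 to 1.88) in windows with 1 common region, 1.30 (1.17 to 1.44) with 4 to 6 and 0.940 (0.743 to 1.17) in the 83 windows with 7 or more. Windows without a common region were 37.8 % of all windows and held 49.0 % of the selected peaks. Each common region holds a Sox13hi peak that overlaps another list, and the choice left out every such peak. Shared Sox13hi peaks past both minima rose over the same windows, from 0.369 per Mb (0.330 to 0.410) to 9.88 (9.2 to 10.6). The fall thus concerns Sox13hi peaks in no other list and not Sox13hi peaks in general. The part of the choice in it was not tested.

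Lower-scored or narrower peaks of the Sox13hi list alone also became sparser with the number of common regions, while DP peaks outside these regions changed little. Between windows without a common region and those with 7 or more, the density of selected peaks differed by a ratio of 2.52 (2.01 to 3.21) and that of the weaker Sox13hi-only peaks by 1.87 (1.72 to 2.03), from 13.5 to 7.22 per Mb. Each common region holds a DP peak by definition, so only DP peaks outside them were counted. Their density was 33.4 per Mb (33.0 to 33.7) and 35.6 per Mb (34.3 to 36.9) in the same windows. These DP peaks had no score or width minimum, and those that overlapped a Sox13hi or Sox13lo peak outside common regions were kept. The DP and Sox13hi-only sets were thus not chosen alike. Sox13lo or DP peaks covered 0.765 % of the windows without a common region and 1.53 % of those with 7 or more, and the part of this in the density of selected peaks was not tested. The ratio intervals of the selected and of the weaker peaks overlap only between 2.01 and 2.03, which does not show that the ratios are alike. For the share within 50 kb of a common region, the intervals of observed to expected did not overlap. They were 0.651 to 0.780 for the selected and 0.796 to 0.851 for the weaker peaks. Within 100 kb they were 0.701 to 0.797 and 0.817 to 0.857, but within 10 kb they overlapped, at 0.638 to 0.934 and 0.783 to 0.906. The choice kept 44.6 % of Sox13hi peaks past both minima and 90.4 % of those below either. Uniform placement does not model this unequal removal, so these intervals cannot tell whether the placement of the 2 groups differs beyond it.

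**Figure D3:**
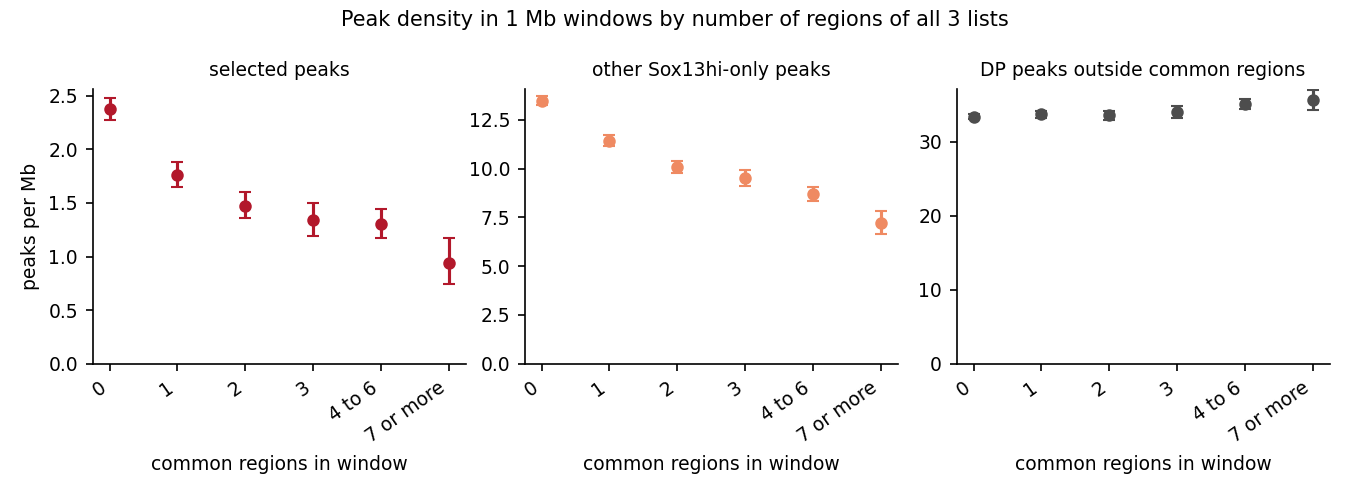
Peaks per Mb in 1 Mb windows grouped by the number of regions of all 3 lists that they hold, for the selected peaks, the other Sox13hi-only peaks and the DP peaks outside these regions; bars are exact 95 % Poisson intervals and each vertical axis starts at 0. Selected peaks fall from 2.37 to 0.940 per Mb, other Sox13hi-only peaks from 13.5 to 7.22, and DP peaks outside common regions stand at 33.4 and 35.6.

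Chromosomes differed in the number of selected peaks for their length. The mean over the autosomes was 1.78 per Mb, and density is given relative to that mean. Chromosomes 7 and 11 were the sparsest, at 0.689 (0.593 to 0.795) with 187 peaks and 0.710 (0.602 to 0.831) with 154 peaks. Chromosome 16 was the densest, at 1.23 (1.07 to 1.41) with 216 peaks, followed by chromosome 1 at 1.18 (1.07 to 1.30) with 413, chromosome 14 at 1.14 (1.01 to 1.29) with 255 and chromosome 10 at 1.14 (1.01 to 1.29) with 264. For the other 13 autosomes the interval included 1.

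Chromosome 11 was at the opposite end for common regions, with a relative density of 1.5 (1.34 to 1.69), and chromosome 14 was sparsest in them, at 0.614 (0.510 to 0.733). Over the 19 autosomes, which share their libraries and differ in base composition, the density of selected peaks and of common regions had r = -0.70 and rho = -0.69. With the weaker Sox13hi-only peaks r was 0.90, with Sox13lo peaks -0.71 and with DP peaks -0.08, given as descriptions. Of the Sox13hi peaks past both minima, 27.5 % (24.0 to 31.3) were selected on chromosome 11 and 57.8 % (53.2 to 62.4) on chromosome 14, shares that fall by construction where peaks of common regions are many. Base composition and the share of sequence to which reads can be assigned differ between chromosomes, and their part in these densities was not tested.

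**Figure D4:**
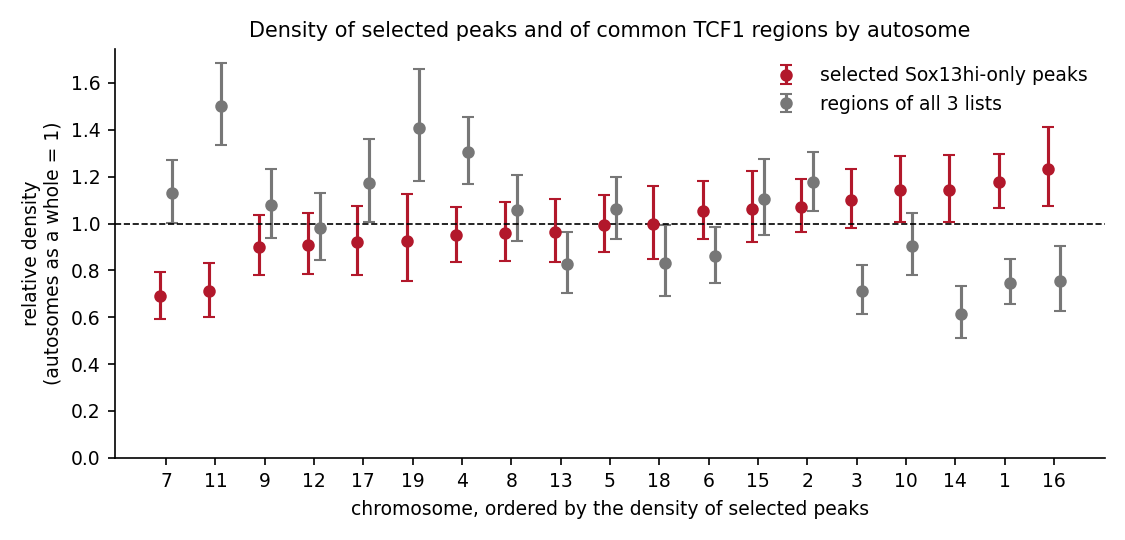
Density of the selected peaks and of the regions of all 3 lists on each autosome relative to the autosomes as a whole (dashed line at 1), with exact 95 % Poisson intervals and chromosomes ordered by the density of selected peaks. Chromosomes 7 and 11 lie lowest for selected peaks, at 0.689 and 0.710, and chromosome 11 is highest for common regions, at 1.5.

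Along the chromosomes the share of selected peaks had an interval below an even share in the most distal part alone. Mouse autosomes have their centromere at the start of the sequence. When each was divided into 5 parts of equal length, the parts held, from the centromere on, 19.6 %, 20.4 %, 22.1 %, 21.7 % and 16.2 % (15.1 to 17.3) of the selected peaks. The most distal held 18.3 % (17.8 to 18.7) of the weaker Sox13hi-only peaks, 27.4 % (26.0 to 28.8) of the common regions and 21.4 % (21.1 to 21.7) of the DP peaks.

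The selected peaks were somewhat grouped. Another selected peak lay within 10 kb of 214 of them, or 4.86 % (4.27 to 5.54), against 3.65 % expected from uniform placement, a ratio of 1.33 (1.17 to 1.52). Weaker peaks of the Sox13hi list alone lay within 10 kb of 24.4 % (23.2 to 25.7), against 20.3 % expected. A Sox13hi peak shared with another list lay within 50 kb of 21.2 % (19.99 to 22.4), against 24.3 % expected, and within 1 kb of 0.841 % (0.610 to 1.16), against 0.573 %. Windows of 1 Mb without any selected peak made up 21.7 %, against 16.1 % for a Poisson distribution of the same mean, and the ratio of variance to mean was 1.41, compared with 1.60 for DP peaks and 5.20 for Sox13lo peaks. That ratio can rise with the number of peaks in a list.

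The largest group held 6 selected peaks within 34.4 kb on chromosome 3, at 25420801 to 25455150. Its best-scored member, at 25429001 to 25429250, scored 34.4, and the others scored between 12.3 and 22.8. Within 10 kb of the group the Sox13hi list had 18 peaks, the Sox13lo list 6 and the DP list 4. Most of the Sox13lo peaks lay between the selected ones, the best-scored at 25430601 to 25431200 with a width of 600 bp, and each selected peak of the group had a Sox13lo peak within 950 to 6700 bp. No region of all 3 lists was closer than 377500 bp. Both γδ lists thus had several peaks in this stretch, at positions that only partly coincided.

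Elsewhere groups were small. With at most 10 kb between neighbours, there were 2 further groups of 3 peaks, on chromosome 1 at 48064251 to 48068100 and on chromosome 3 at 70990451 to 70995250, and 101 pairs, and 4188 selected peaks stood alone. The richest 1 Mb windows had 10 selected peaks each, on chromosome 1 from 48000001, on chromosome 5 from 69000001, on chromosome 10 from 102000001 and on chromosome 15 from 47000001. None of these 4 windows held a common region, and they held 27 to 37 DP peaks each. The longest stretch without a selected peak was 8.49 Mb on chromosome 7, from 38136701 to 46627950, in which the Sox13hi list had 18 peaks and the DP list 59. Chromosome 7 as a whole had 32.8 DP peaks and 8.22 weaker Sox13hi-only peaks per Mb. Calls of these lists were thus sparse in this stretch too, and it is not particular to the selected peaks.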

How the data were processed

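TCF1 chromatin immunoprecipitation libraries of Sox13hi and Sox13lo γδ thymocytes and of DP thymocytes were analysed, 1 per population. The authors deposited a peak list for each, without a header, with a score per peak as the only measurement. The build is mm9, per the submitters' processing notes. Which aligner, peak caller and threshold were applied, and how the input entered, is not given in the sources used here. Starts and widths were multiples of 50 bp.

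Overlaps (1 bp or more) were computed with pandas 2.3.3, numpy 2.4.6 and scipy 1.17.1 under Python 3.11.15, and the selected set was checked with bedtools 2.31.1. Chromosome lengths came from GenomeInfoDb 1.38.1 in R 4.3.3, and plots from matplotlib 3.10.9. Expected shares were counted exactly over all grid positions, and the code was tested on simulated data.

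The peaks, regions and comparisons were chosen with earlier results of these data known. Named regions are the 20 best-scored selected peaks, those at the minimum score, the widest, those closest to other lists and the tightest groups. The richest windows and the longest empty stretch were named after their values were seen. The gene table at hand is on GRCm38, another build, so the planned results on promoters, nearest genes and TCF/LEF motifs were not analysed here. Peaks of comparable score and width, and DP peaks outside common regions, were counted in settings chosen after seeing the data.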

Additional observations from a re-analysis of the deposited data

How the results depend on the processing

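Of the alternative values, 29 stayed within the counting interval (for the number of peaks, within 1.5 times) and 13 moved. Keeping the better-scored part of the selected peaks left 2222 peaks, 31.5 % of the Sox13hi peaks past these minima, with 2.57 % within 10 kb of another selected peak. A minimum width of 200 bp left 2725, 35.7 % and 2.97 %. Both alternatives keep fewer peaks by construction. With a reciprocal overlap of 50 % needed for sharing, 56.3 % of the peaks past the minima were in no other list, and among peaks scored below 20 and up to 250 bp wide, bounds chosen after seeing the data, 68.7 % were. Counting a peak within 200 bp as shared lowered the share within 1 kb of another list to 5.77 %. Other distances gave other shares by construction: 4.04 % within 500 bp and 31.7 % within 5 kb of a peak of another list, 9.61 % within 50 kb of a common region and 20.3 % within 50 kb of another selected peak. Over the alternative choices of peaks run for placement, the ratio of observed to expected share within 50 kb was 0.669 to 0.720 for common regions and 0.740 to 0.775 for Sox13lo peaks, and within 10 kb of DP peaks 1.01 to 1.02. No paired analysis was possible because only 1 library stood for each population. Other settings for promoters and motifs were not run. Depth of sequencing is not known, and with it the weakest binding that the Sox13lo and DP lists could show.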
